A study of Mus musculus with 12 samples.

Results

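The contractile genes of myoepithelial cells were followed in mammary tissue of mice that lacked different parts of the Stat5 locus. The group holds 9 genes chosen by name, and every probe set that the platform's annotation ties to one of them was taken, which gave 18 of the 45101 probe sets on the array. Transcript levels were measured with Affymetrix arrays in 12 mice of 4 genotypes, 3 mice each, 6 days after a mating plug was seen. Stat5a and Stat5b are neighbouring genes for related transcription factors that act downstream of prolactin in the mammary gland. Per the labels, Stat5a-/- mice had no intact Stat5a and 2 intact Stat5b alleles, and Stat5ab+/null mice had 1 intact allele of each. Stat5abnull/Stat5b- mice kept 1 Stat5a allele as their only intact Stat5 allele (single-Stat5a below), and Stat5abnull/Stat5a- mice kept 1 Stat5b allele (single-Stat5b). All mice were of a mixed C57BL/6, FVB and 129 background, and no mice with an intact locus were analysed here. The labels carry a text on PolyIC injection to activate an Mx1-Cre transgene and describe the samples as sorted cells, while the series design gives mammary tissue. Which of these texts applies cannot be read from the labels.

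Myoepithelial cells are the outer, basal layer of mammary ducts and alveoli. Oxytocin released at suckling binds its receptor on them, calcium rises, myosin light chains are phosphorylated, and actin and myosin filaments of the smooth muscle type shorten and press milk toward the nipple. Genes for these filaments are also expressed by smooth muscle of blood vessels and of the nipple. In whole tissue, fewer cells of a type and less RNA per cell cannot be told apart.

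The 12 arrays fell into a two-allele set (Stat5a-/- and Stat5ab+/null) and a one-allele set (single-Stat5a and single-Stat5b). Pearson r over all probe sets was 0.949 to 0.994 between arrays of 1 set and 0.818 to 0.883 between sets. For beta-actin, the signal of the 3' control probe set less that of the 5' one, which grows as RNA or labelling gets shorter, was 0.13 to 0.27 on the log2 scale in the two-allele arrays and 2.16 to 3.78 in the one-allele arrays. Allele total and array set cannot be told apart, since each genotype lies in 1 set, and genotypes were tested only within a set. Stat5a signal was higher by 0.39 and 0.56 in the arrays labelled Stat5a-/- than in Stat5ab+/null on its 2 probe sets, with neither past the test. Stat5b differed by -0.25 and -0.31 on its 2 probe sets, also uncalled, so all 4 differences run against the labelled allele numbers, and every sign given below for that comparison rests on the labels. Between single-Stat5b and single-Stat5a, the leading probe set of Stat5a differed by -1.23 (limma adjusted p = 0.00251) and its other one by -0.24 (limma adjusted p = 0.814). The leading probe set of Stat5b differed by 0.20 (limma adjusted p = 0.787) and its other one by 0.64 (limma adjusted p = 0.0671). These 4 have the direction of the labels, and 1 of them passed. Epithelial, fat and stromal markers were present. The mean log2 signal of a list per array was 10.4 to 11.6 for 14 luminal genes. It was 9.87 to 10.4 for 17 basal keratin and adhesion genes. For 9 white adipocyte genes it was 11.7 to 13.7, and for 12 fibroblast matrix genes 12.6 to 13.3.

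Values are log2 signals per probe set, so a difference of 1 is a 2-fold change. A gene's leading probe set is the one with the highest mean over the 12 arrays, and levels of different probe sets are not compared, since probes differ in brightness. Of the 18 probe sets, 17 passed the filter on low signal and were tested with limma among 31526 probe sets, with a call at a Benjamini-Hochberg adjusted p under 0.05. The remaining Acta2 probe set (1444105_at), with a mean of 6.02 against the filter level of 6.04, was not tested. It stood at 7.90, 7.52 and 6.56 in Stat5a-/-, 7.84, 6.82 and 6.58 in Stat5ab+/null, 5.48, 4.49 and 5.13 in single-Stat5a and 4.56, 4.92 and 4.48 in single-Stat5b.

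Upstream sequences of 5 of the 9 genes (Acta2, Cnn1, Mylk, Lmod1 and Oxtr) matched a RefSeq table of build GRCm38.p6. The 250 bases before the start of Acta2, Lmod1 and Mylk are shown because they hold matches to motifs of smooth muscle genes, marked in capitals. The motifs are the CArG box, bound by serum response factor, with up to 1 letter off, and CATTCC on either strand, the MCAT motif bound by TEAD factors. They lie at chr19:34255374-34255623 (minus strand), chr1:135324563-135324812 (plus strand) and chr16:34784700-34784949 (plus strand).
Acta2: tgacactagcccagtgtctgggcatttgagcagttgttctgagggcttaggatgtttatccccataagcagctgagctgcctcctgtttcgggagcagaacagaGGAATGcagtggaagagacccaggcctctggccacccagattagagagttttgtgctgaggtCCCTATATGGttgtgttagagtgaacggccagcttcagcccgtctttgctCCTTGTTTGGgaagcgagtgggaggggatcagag
Lmod1: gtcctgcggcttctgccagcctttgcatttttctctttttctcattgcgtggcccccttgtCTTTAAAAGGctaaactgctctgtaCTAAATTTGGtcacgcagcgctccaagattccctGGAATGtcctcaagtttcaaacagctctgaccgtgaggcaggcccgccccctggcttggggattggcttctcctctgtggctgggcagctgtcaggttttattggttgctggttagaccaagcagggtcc
Mylk: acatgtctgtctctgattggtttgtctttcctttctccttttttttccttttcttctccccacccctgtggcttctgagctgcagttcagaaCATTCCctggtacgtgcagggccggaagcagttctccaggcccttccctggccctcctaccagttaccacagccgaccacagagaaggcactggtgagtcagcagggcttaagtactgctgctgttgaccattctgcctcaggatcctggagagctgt
Acta2 and Lmod1 each hold 2 CArG matches and 1 CATTCC match (read as GGAATG), and Mylk holds 1 CATTCC match. Every CArG match shown is 1 letter off, and none of the 5 windows holds an exact CArG box. No matches overlap. Of the 32851 windows of the same length in the table, 18.6% hold a CArG match with up to 1 letter off. An exact CArG box is in 1.47% of them and CATTCC in 12.6%. TTCNNNGAA, the STAT motif, was searched on both strands as well and is in none of the 5 windows, against 7.02% of all windows. The matches describe these letters only.

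Actg2, the gamma actin of enteric smooth muscle and a second smooth muscle actin of myoepithelium, was the one contractile gene that differed between genotypes past the test. It fell in single-Stat5b. Its signal was 8.55, 8.73 and 9.61 in replicates 1 to 3 of single-Stat5b, and 10.70, 10.45 and 10.21 in those of single-Stat5a. All 3 single-Stat5b arrays lay below all 3 single-Stat5a arrays, with single-Stat5b 3 nearest to them. Mean signal was 8.96 ± 0.57 for single-Stat5b against 10.46 ± 0.24 for single-Stat5a (SD, n = 3), a log2 difference of -1.49 (SE 0.27, 95% interval -2.08 to -0.91) or 2.81-fold lower (limma adjusted p = 0.00673). In the two-allele set Actg2 stood at 9.94, 10.25 and 10.32 in Stat5a-/- and at 10.68, 10.39 and 10.06 in Stat5ab+/null. These groups overlapped, at a difference of -0.21 (95% interval -0.79 to 0.38, limma adjusted p = 1.00). The test of whether the difference in the one-allele set departs from that in the two-allele set gave -1.29 (SE 0.38) and did not pass (limma adjusted p = 0.214). With each array left out in turn, its limma adjusted p ran from 0.0216, without single-Stat5b 3 (-1.61), to 0.502. Single-Stat5b 3 is the array of its genotype nearest to single-Stat5a, so leaving it out widens the difference.

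**Figure D1:**
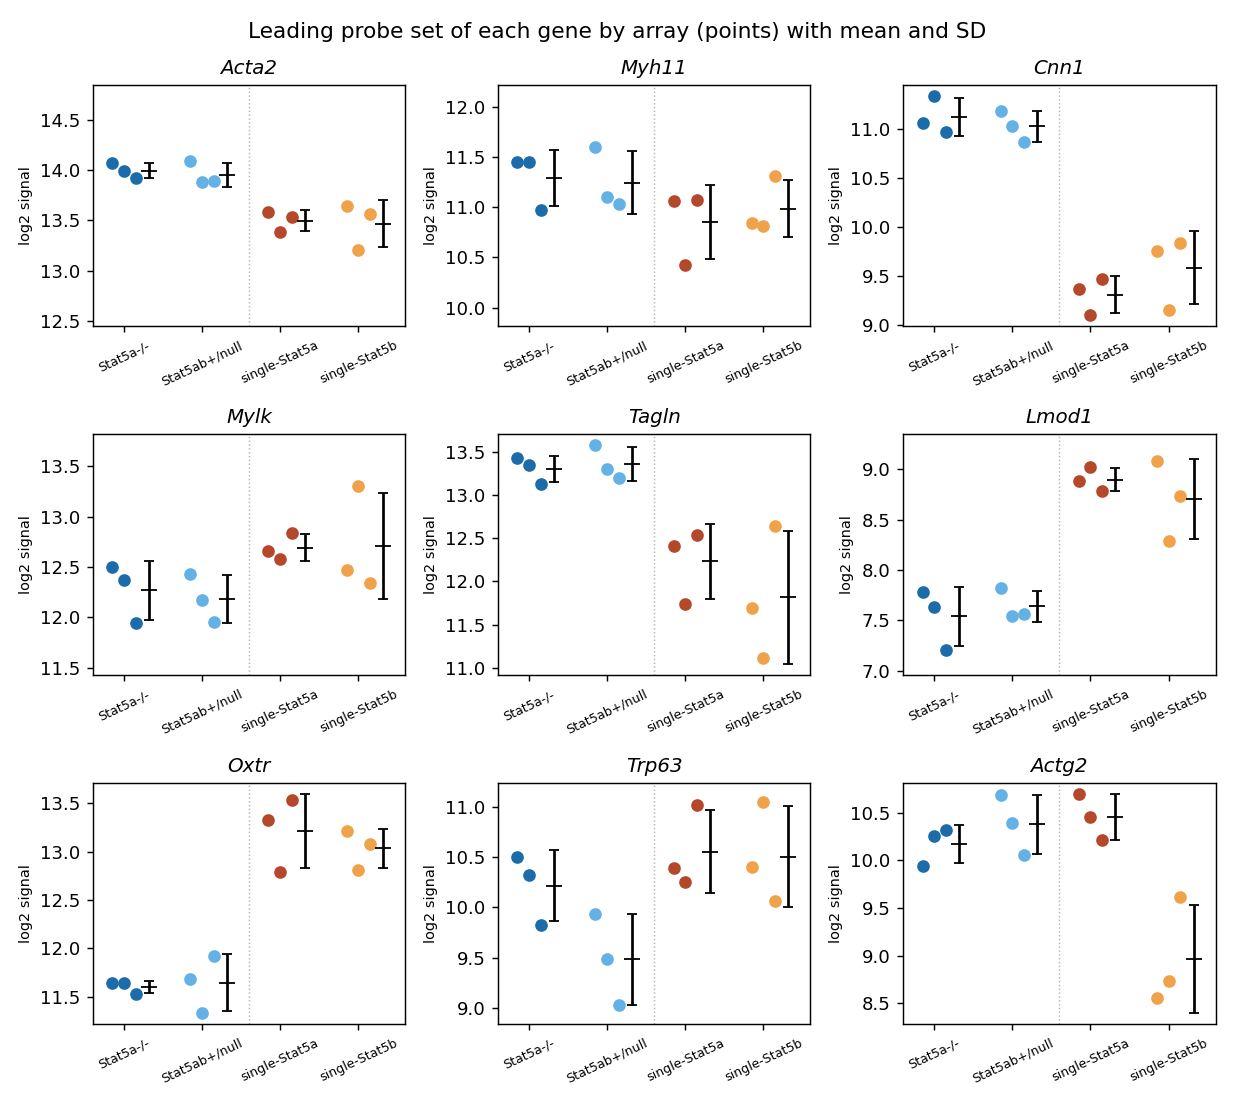
Log2 signal (y axis, a separate range of at least 2.4 units in each panel) of the leading probe set of each of the 9 genes, with 1 point per array in the 4 genotypes (x axis) and a bar for the mean and SD of 3 arrays. The dotted line parts the two-allele set from the one-allele set. Within the one-allele set, Actg2 is at 8.55 to 9.61 in the 3 single-Stat5b arrays and at 10.21 to 10.70 in the 3 single-Stat5a arrays.

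Skeletal muscle signal varied widely among the one-allele arrays. The mean of 13 skeletal muscle genes, such as the fast myosin gene Myh4, was 8.16, 8.70 and 10.89 in replicates 1 to 3 of single-Stat5b, and 10.81, 13.64 and 9.95 in those of single-Stat5a. In single-Stat5b, the array with the most muscle signal also had the most Actg2 signal, whereas in single-Stat5a it did not. Over the 6 one-allele arrays, the Pearson r between deviations of Actg2 and of a list mean from their genotype means was 0.81 for fibroblast matrix, 0.70 for smooth muscle contraction, 0.65 for pericyte and 0.62 for skeletal muscle genes, given as a description. It was 0.54 for endothelium, 0.505 for adipocytes, 0.429 for skin, 0.416 for basal, 0.292 for luminal and -0.601 for B cell genes. Over the two-allele arrays it was -0.217 for fibroblast matrix, 0.175 for smooth muscle contraction, -0.133 for pericyte and 0.334 for skeletal muscle genes. In the two-allele set the muscle mean reached 9.63 in Stat5a-/- 3 and 8.72 in Stat5ab+/null 2, against 6.62 to 6.78 in the other 4 arrays, and Actg2 in those arrays lay within 9.94 to 10.68 throughout. With the skeletal muscle and B cell means as covariates, Actg2 differed by -1.10 and no longer passed (limma adjusted p = 0.139), and in a fit of the 2 one-allele groups alone it differed by -1.49 with limma adjusted p = 0.0516. The part of other tissue in the result was not tested further. The 3' minus 5' beta-actin control was 3.78, 2.41 and 2.16 in single-Stat5b 1 to 3 and 2.42, 2.16 and 3.07 in single-Stat5a 1 to 3. In single-Stat5b, Actg2 was lower where this control was higher, and in single-Stat5a the lowest Actg2 array had the highest control value. With this control as a covariate Actg2 stayed past the test. The part of RNA or labelling length in the result was not tested further. Without single-Stat5a 2 and single-Stat5b 3 together, a choice made after seeing the data, Actg2 differed by -1.82 and passed (limma adjusted p = 0.00294), as did Tagln at -1.08 (limma adjusted p = 0.0275).

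**Figure D2:**
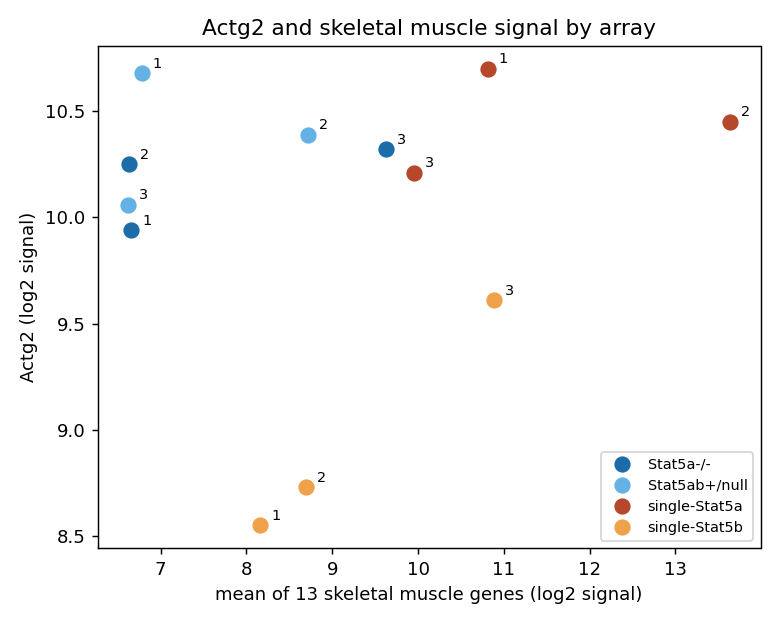
Log2 signal of Actg2 (y axis) against the mean log2 signal of 13 skeletal muscle genes (x axis), with 1 point per array, coloured by genotype and numbered by replicate. The 3 single-Stat5b arrays lie below the 3 single-Stat5a arrays on the y axis, and single-Stat5b 3, with a muscle mean of 10.89, lies nearest to them at 9.61.

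Over all 17 tested probe sets, 1 was called between single-Stat5b and single-Stat5a, that of Actg2, where limma called 2.89% of all probe sets tested (912 of 31526; 1.81% lower and 1.08% higher). At an unadjusted p under 0.05 there were 2 of 17, against 11.8% of all. The members' median difference was -0.05 and 5 of 17 lay above 0, beside a median of -0.00 and 49.8% above 0 over all probe sets. Groups did not overlap for 1 lower member (Actg2) and 1 higher member, beside 6.16% and 5.29% of all probe sets. The higher one was a Trp63 probe set (1459581_at) with 7.13, 6.60 and 7.06 in single-Stat5a and 7.84, 7.29 and 7.31 in single-Stat5b, a difference of 0.55 (SE 0.21) that was not called (limma adjusted p = 0.293).

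Between the arrays labelled Stat5a-/- and Stat5ab+/null limma called none of the 17, where it called 0.00952% of all probe sets (3 of 31526). At an unadjusted p under 0.05 there was 1 of 17, the leading Trp63 probe set, against 2.84% of all. The members' median difference was 0.04, with 10 of 17 above 0, beside -0.05 and 38.6% over all probe sets. Groups did not overlap for 2 members, both of Mylk and both lower in Stat5a-/-, beside 11.3% of all probe sets, and for no higher member, beside 6.17%. In the test of the difference between the 2 comparisons, limma called none of the 17 (1 at an unadjusted p under 0.05, against 7.47% of all), where it called 1.09% of all probe sets.

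**Figure D3:**
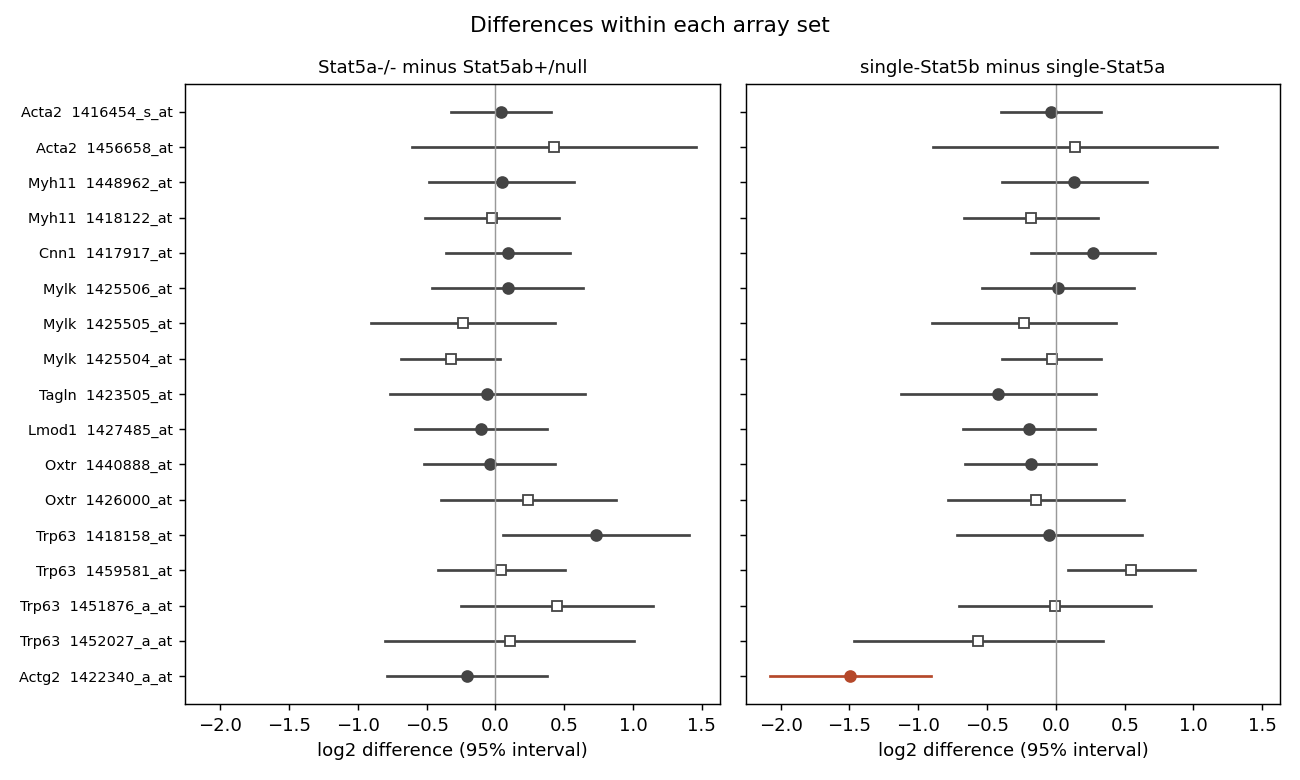
Log2 difference (x axis) with its 95% interval for each of the 17 tested probe sets (y axis), for Stat5a-/- minus Stat5ab+/null on the left and single-Stat5b minus single-Stat5a on the right. Filled circles are leading probe sets and open squares the others; the interval of Actg2 on the right, -2.08 to -0.91, is the one drawn in red as past the test.

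The filament proteins other than Actg2 did not differ past the test within either set. Acta2, the smooth muscle alpha actin that marks myoepithelium, stood at 14.07, 13.99 and 13.92 in Stat5a-/-, 14.09, 13.88 and 13.89 in Stat5ab+/null, 13.58, 13.38 and 13.53 in single-Stat5a and 13.64, 13.20 and 13.56 in single-Stat5b. The genotypes of each set overlapped. Its differences were 0.04 (95% interval -0.32 to 0.41) in the two-allele set and -0.03 (-0.40 to 0.33) in the one-allele set. The signal of this probe set (1416454_s_at) is above that of 99.4% of probe sets, near the top of the range of the arrays, and the suffix _s_at marks probes that can also match transcripts of other genes. The other tested Acta2 probe set (1456658_at) differed by 0.42 (SE 0.48) and 0.14 (SE 0.48). It passed the filter through the two-allele arrays, with means of 7.36 in Stat5a-/- and 6.93 in Stat5ab+/null. Its means of 5.52 in single-Stat5a and 5.66 in single-Stat5b lie below the filter level of 6.04, so the 0.14 compares low signals.

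Myh11, the smooth muscle myosin heavy chain, stood at 11.45, 11.45 and 10.97 in Stat5a-/- and 11.60, 11.10 and 11.03 in Stat5ab+/null. In the one-allele set it stood at 11.06, 10.43 and 11.07 in single-Stat5a and 10.84, 10.81 and 11.31 in single-Stat5b. Groups overlapped in both sets, and the differences were 0.05 (95% interval -0.48 to 0.57) and 0.14 (-0.39 to 0.66), turning below 0 in some alternatives. The other Myh11 probe set (1418122_at) differed by -0.02 and -0.18.

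Of the proteins that bind or regulate actin filaments, calponin (Cnn1) stood at 11.12 ± 0.19 in Stat5a-/-, 11.03 ± 0.16 in Stat5ab+/null, then 9.59 ± 0.37 for single-Stat5b and 9.31 ± 0.19 for single-Stat5a (SD, n = 3), in falling order. Its neighbours within each set did not differ past the test, at 0.09 (95% interval -0.36 to 0.54) and 0.27 (-0.18 to 0.72). Tagln, which encodes the actin-binding transgelin (SM22), was the most variable of the 9 in single-Stat5b, at 11.69, 11.11 and 12.64 in its 3 arrays against 12.41, 11.74 and 12.54 in single-Stat5a. The groups overlapped and the difference of -0.42 was not called (95% interval -1.13 to 0.29, limma adjusted p = 0.730). In the two-allele set Tagln stood at 13.43, 13.34 and 13.13 against 13.58, 13.30 and 13.19, a difference of -0.06. Lmod1, the leiomodin that starts new actin filaments in smooth muscle, stood at 7.54 ± 0.30 in Stat5a-/-, 7.64 ± 0.16 in Stat5ab+/null, 8.70 ± 0.40 in single-Stat5b and 8.90 ± 0.12 in single-Stat5a, in rising order. It differed by -0.10 (95% interval -0.58 to 0.38) and -0.20 (-0.67 to 0.28) within the sets.

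Mylk, the kinase that phosphorylates myosin light chains, was read by 3 probe sets. The leading one (1425506_at) stood at 12.50, 12.37 and 11.94 in Stat5a-/- and 12.43, 12.17 and 11.95 in Stat5ab+/null, a difference of 0.09 (95% interval -0.46 to 0.64). The second (1425505_at) stood at 10.77, 10.82 and 10.42 against 11.02, 10.84 and 10.84. The third (1425504_at) stood at 7.95, 7.97 and 7.90 against 8.36, 8.18 and 8.24. The latter 2 were lower in every Stat5a-/- array, by 0.23 and 0.32 on the log2 scale, and neither was called (limma adjusted p = 1.00 each). In single-Stat5b 1 to 3 the leading probe set read 12.47, 13.31 and 12.34 and the second 9.63, 9.87 and 11.10, so that the array highest on one was not the highest on the other. The second was highest in single-Stat5b 3, the array with the most muscle signal of its genotype. In none of the other genotypes did the array with the most muscle signal read highest on this probe set. Those arrays read 10.41 (single-Stat5a 2), 10.42 (Stat5a-/- 3) and 10.84 (Stat5ab+/null 2). The part of other tissue in these readings was not tested. The differences between single-Stat5b and single-Stat5a were 0.01, -0.23 and -0.03 for the 3 probe sets, and none passed.

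Oxtr, the oxytocin receptor through which contraction is triggered, stood on its leading probe set at 11.64, 11.64 and 11.53 in Stat5a-/- and 11.68, 11.33 and 11.92 in Stat5ab+/null. It stood at 13.33, 12.79 and 13.53 in single-Stat5a and 13.21, 12.81 and 13.08 in single-Stat5b. Genotypes overlapped within each set, with differences of -0.04 (95% interval -0.52 to 0.44) and -0.18 (-0.66 to 0.29). The other Oxtr probe set (1426000_at) differed by 0.24 (SE 0.29) and -0.14 (SE 0.29).

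Trp63, the p63 transcription factor that maintains basal epithelial cells, had the largest difference among the leading probe sets in the two-allele set. It stood at 10.50, 10.32 and 9.82 in Stat5a-/- and 9.93, 9.49 and 9.03 in Stat5ab+/null. The lowest Stat5a-/- array lay below the highest Stat5ab+/null array, so the groups overlapped. The difference was 0.73 (SE 0.31, 95% interval 0.06 to 1.41) with limma adjusted p = 1.00 over all probe sets. The other 3 Trp63 probe sets, 1451876_a_at, 1452027_a_at and 1459581_at, gave 0.45, 0.10 and 0.04, all above 0 and none called. Between single-Stat5b and single-Stat5a the leading probe set differed by -0.05, from 10.39, 10.25 and 11.02 to 10.40, 11.05 and 10.06. In the same order as above, the other 3 gave -0.01, -0.56 and 0.55. The -0.01 of 1451876_a_at compares means of 5.77 in single-Stat5a and 5.76 in single-Stat5b, both below the filter level of 6.04. That probe set passed the filter through the two-allele arrays, with means of 8.035 in Stat5a-/- and 7.585 in Stat5ab+/null. The leading probe set's differences in the 2 sets were not shown to differ (-0.78, SE 0.44, limma adjusted p = 0.826).

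Deviations of each array from its genotype mean were compared between the 9 genes. They were positive for all 9 genes in Stat5ab+/null 1 and for 1 of 9 in each of Stat5a-/- 3, Stat5ab+/null 3 and single-Stat5a 2. In the two-allele set, 31 of the 36 pairs of genes had a Pearson r of deviations above 0 (median 0.72, 6 arrays), and in the one-allele set 20 of 36 (median 0.21, 6 arrays). Mylk and Trp63 had r = 0.98 in the two-allele set and 0.89 in the one-allele set. In single-Stat5b 2 they lay 0.60 and 0.55 above their genotype means while Tagln lay 0.71, Cnn1 0.42 and Acta2 0.27 below (deviations of -0.71, -0.42 and -0.27), and in single-Stat5b 3 Tagln was 0.83 above and Trp63 at -0.45. Stat5a-/- 3 had a B cell list mean of 11.0, against 6.63 and 6.68 in the other 2 mice of its genotype, and single-Stat5a 2 had the highest muscle mean, 13.64. The highest B cell mean, 11.47, was that of Stat5ab+/null 2, with 3 positive genes. Stat5ab+/null 3 had means of 9.15 for B cells and 6.62 for muscle. Single-Stat5b 3, with a muscle mean of 10.89, had 7 positive genes. The part of other tissue in these deviations was not tested. All r values here describe arrays that share genotype means and are given without a test.

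**Figure D4:**
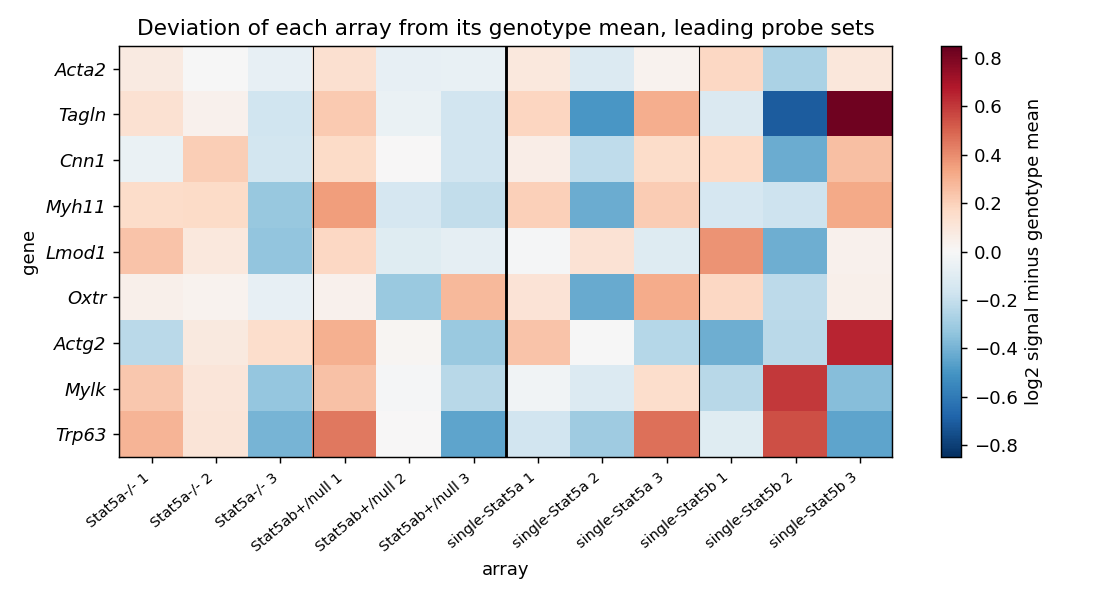
Log2 signal minus genotype mean (colour, from blue below to red above) for the leading probe set of each gene (y axis) in each array (x axis), with the heavy line between the array sets. Single-Stat5b 2 shows Mylk and Trp63 at 0.60 and 0.55 and Tagln at -0.71, and single-Stat5b 3 shows Tagln at 0.83.

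The genes most like the group were sought among 14189 others by the Pearson r, over the 12 arrays, between their deviations and the mean deviation of the 9 leading probe sets. The 10 highest were Crkl (0.95), Fcgbp (0.94), Sidt1 (0.94), Rab42 (0.94), Aak1 (0.94), Bicc1 (0.93), Gab1 (0.93), Lamb3 (0.92), Tns3 (0.92) and Krt5 (0.92). Krt5, a keratin of basal epithelium, and Lamb3, a laminin chain of the basement membrane, also stand on the basal list. Within the sets, r was 0.96 and 0.98 for Krt5 and 0.97 and 0.96 for Lamb3 in the two-allele and one-allele arrays. The mean of 17 basal genes gave r = 0.91, that of 14 luminal genes 0.91 and that of 12 fibroblast matrix genes 0.79. The mean of 33 smooth muscle contraction genes gave r = 0.58, at 0.97 in the two-allele and 0.06 in the one-allele arrays. The other lists gave 0.52 (endothelium), 0.46 (pericyte), 0.42 (adipocytes), 0.20 (skin), -0.47 (skeletal muscle) and -0.53 (B cells).

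Other genes of smooth muscle contraction were taken from a list of 36, of which 33 had a probe set past the filter. Between single-Stat5b and single-Stat5a, 1 of 33 rose and none fell, beside 2.37% called among the leading probe sets of 14198 genes. The one that rose was Pln, phospholamban, which restrains the calcium pump of the sarcoplasmic reticulum, from 7.47 ± 0.07 to 8.37 ± 0.45 (SD, n = 3; log2 difference 0.90, SE 0.21, limma adjusted p = 0.0315), while its other probe set differed by 0.11. The list's median difference was -0.10 and 12 of 33 lay above 0, beside -0.03 and 45.9% over all genes. Named after their values were seen, Myocd, the coactivator of serum response factor, differed by 1.16 (limma adjusted p = 0.0890) and the muscle intermediate filament gene Des by -1.18 (limma adjusted p = 0.531, with an SD of 1.73 in single-Stat5a), both uncalled. Between Stat5a-/- and Stat5ab+/null limma called none of the 33, beside 0.00704% of all genes. At an unadjusted p under 0.05 there were 2 of the 33, beside 2.9% of all genes. Here the median of the list was 0.01, with 17 above 0, beside -0.08 and 33.6% over all genes. The 3 largest differences were those of the potassium channel gene Kcnma1 at -0.91 (another probe set 0.34), the myosin phosphatase inhibitor gene Ppp1r14a at -0.47 and the serum response factor coactivator gene Mrtfa at -0.45.

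Limma called none of 16 basal keratin and adhesion genes tested, beside 0.00704% of all genes in the two-allele and 2.37% in the one-allele comparison. None of the 16 had an unadjusted p under 0.05 in either set, beside 2.9% and 11.3% of all genes. Medians were 0.06 (11 above 0) between Stat5a-/- and Stat5ab+/null, led by Krt5 at 0.40, Cdh3 at -0.36 and Itgb4 at -0.33, and -0.05 (7 above 0) between single-Stat5b and single-Stat5a, led by Col17a1 at -0.68, Snai2 at 0.38 and Itga6 at 0.36. Beside the same shares, none of 12 pericyte and vascular smooth muscle genes was called or had an unadjusted p under 0.05 in either set. Medians were -0.15 (3 above 0), led by Kcnj8 at -0.41, Notch3 at -0.33 and Pdgfrb at -0.28, and -0.09 (3 above 0), led by Mcam at -0.62, Cspg4 at -0.41 and Vtn at -0.39. The pericyte list mean per array was 9.46 to 9.60 in Stat5a-/-, 9.60 to 9.76 in Stat5ab+/null, 10.1 to 10.2 in single-Stat5a and 9.82 to 10.1 in single-Stat5b. Vessel and nipple smooth muscle were not separated from myoepithelium in these samples.

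Of 13 skeletal muscle genes limma called none between single-Stat5b and single-Stat5a, beside 2.37% of all genes, and 5 had an unadjusted p under 0.05, beside 11.3% of all genes. All 13 differed by less than 0 between single-Stat5b and single-Stat5a, at a median of -2.30, led by Actn3 at -3.41, Myh4 at -3.40 and Mybpc2 at -2.996, beside 10 of 13 above 0 and a median of 0.29 in the two-allele set. In the same one-allele comparison the medians were -0.42 over 12 endothelial, 0.22 over 9 B cell, 0.35 over 14 luminal, -0.05 over 12 fibroblast matrix and -0.55 over 9 adipocyte genes. None of these was called by limma, and 5 endothelial, 2 adipocyte and 1 luminal gene had an unadjusted p under 0.05, with 0 of the B cell and fibroblast genes, beside the same 11.3% of all genes. Of 7 skin keratinocyte genes, Sprr1a rose by 2.55 (limma adjusted p = 0.00148) and Krtdap fell by 1.75 (limma adjusted p = 0.0228), and 4 of the 7 had an unadjusted p under 0.05. In the two-allele comparison the medians were -0.15, -1.44, -0.09, 0.01, -0.00 and -0.21 for endothelial, B cell, luminal, fibroblast, adipocyte and skin genes. Limma called none of them, beside 0.00704% of all genes. An unadjusted p under 0.05 was found for 1 endothelial, 1 luminal and 1 skin gene, beside 2.90% of all genes.

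Set against each other without a test, the one-allele and two-allele arrays gave opposite signs for different probe sets of 1 gene. The difference between the means of the 6 one-allele and the 6 two-allele arrays was -0.35 and 0.52 for the 2 Myh11 probe sets, 1.50 and -0.82 for those of Oxtr, and 0.47, -0.47 and -1.42 for those of Mylk. For Trp63 it ran from -2.05 to 0.68 over 4 probe sets. Thus 4 of the 5 genes with several probe sets had them on both sides of 0, and the leading probe set was the highest on this scale for Oxtr, Mylk and Trp63. All 3 Acta2 probe sets were lower in the one-allele arrays, at -0.49, -1.56 and -2.36. Among genes with 1 probe set, Cnn1 stood at -1.63, Tagln at -1.30, Actg2 at -0.56 and Lmod1 at 1.21. The sets did not overlap for 5 lower and 2 higher of the 17 probe sets past the filter, 41.2% of them, beside 53.9% of all 31526 (25.8% lower and 28.1% higher). These differences are levels only, with no test, because the sets also differ in the 3' minus 5' control signal given above.

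**Figure D5:**
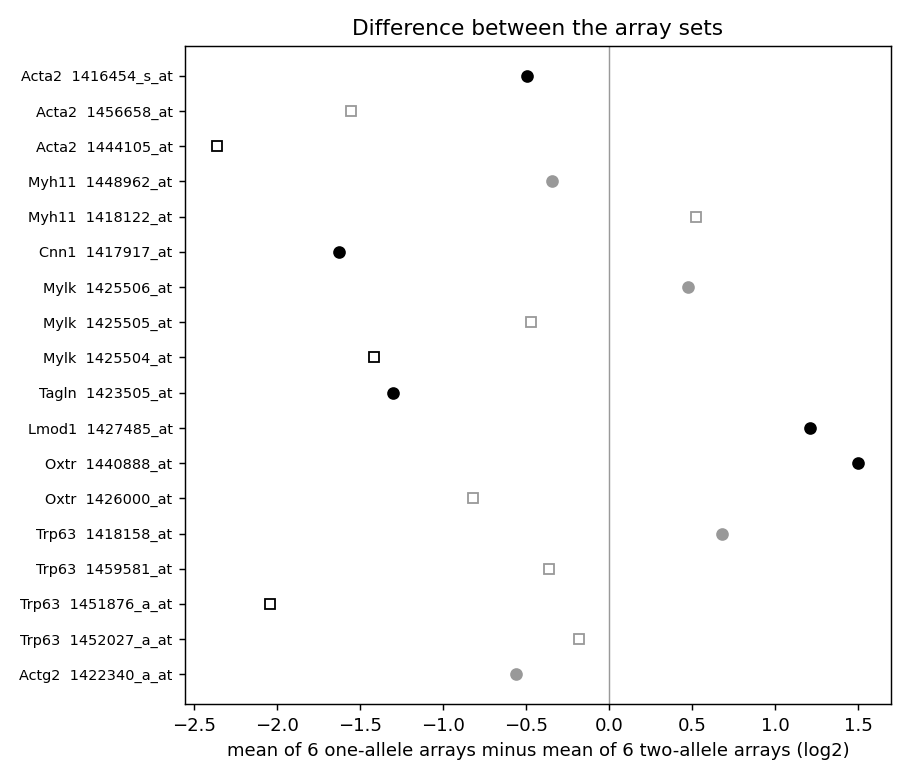
Mean of the 6 one-allele arrays minus mean of the 6 two-allele arrays (x axis, log2) for each of the 18 probe sets (y axis). Circles are leading probe sets and squares the others, black where the arrays of the sets do not overlap and grey where they do; the values run from -2.36 for an Acta2 probe set to 1.50 for the leading Oxtr probe set.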

How the data were processed

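RNA extracted with Trizol was labelled with biotin and hybridized to Affymetrix arrays, per the labels' protocols. The authors deposited log2 signals per probe set, and RMA and Partek are named in the submitters' processing notes, with versions and settings not given in the sources used here. Groups came from the genotype labels, with replicates numbered in the order of the records. Probe sets were named from the platform's annotation: 34945 named 1 gene, 932 several and 9160 none, and 64 controls were left out of the tests.

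A probe set was tested if its mean over the 12 arrays reached the 30th percentile (log2 6.04), as 31526 did. They were fitted in R 4.3.3 with limma 3.58.1. The fit had 1 mean per genotype and 1 spread shared by the 12 arrays, with eBayes, 2-sided tests and Benjamini-Hochberg adjustment over all probe sets. Contrasts were Stat5a-/- minus Stat5ab+/null, then single-Stat5b minus single-Stat5a, and the second less the first. An exact permutation test of 3 arrays against 3 gives 0.1 as its smallest p, and the number of arrays limits the precision. The labels give separate mice and nothing more on independence, so p-values measure the spread between these samples. The fit was tested on simulated data.

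The 9 genes and the lists of other genes were chosen with earlier results of these data known. Named in the text are all 18 probe sets, up to 4 called genes of a list, and the 10 genes with the most similar deviations. Where none was called, the 3 largest differences are named for the smooth muscle, basal and pericyte lists. For skeletal muscle they are named in the one-allele set only. Myocd and Des were named after their values were seen. Lists were smooth muscle contraction, basal keratin and adhesion, pericyte and vascular smooth muscle, endothelium, skeletal muscle, B cells and plasma cells, luminal epithelium, fibroblast matrix, white adipocytes and skin keratinocytes. Alternatives were no filter, a 50th percentile filter, quantile normalization, median centring, 1 probe set or the mean per gene, a trended robust variance, array weights, only the groups compared, an adjusted p under 0.01, covariates, and each array left out.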

Additional observations from a re-analysis of the deposited data

How the results depend on the processing

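The lower Actg2 signal in single-Stat5b than in single-Stat5a stayed past the threshold in 23 of 25 alternatives (limma adjusted p of 0.000642 to 0.0418 with each array left out, at differences of -1.815 to -1.286). The call was lost with only the groups compared and with the skeletal muscle and B cell means as covariates. Many of the 25 could change little. Actg2 has 1 probe set, so the settings of probe sets per gene do not alter its signal. Leaving out a two-allele array leaves its difference as it was and mainly changes the shared spread. The 25 also hold the fit without single-Stat5a 2 and single-Stat5b 3 together, chosen after seeing the data. Of 666 alternative values for the 9 leading probe sets, 602 kept direction and call, 2 lost the call, 4 gained one and 58 turned direction, all 58 of differences that were not called. Where a value turned or a call was lost, the cause was not tested. No paired analysis was possible because the labels share no replicate numbers between genotypes and the numbers used here follow the order of the records.

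The contractile probe sets called between single-Stat5b and single-Stat5a were 1 in the fit reported, 0 with only the groups compared, 0 with skeletal muscle and B cell means as covariates, and 2 (Actg2 and Tagln) without single-Stat5a 2 and single-Stat5b 3 together, an alternative chosen after seeing the data. For the difference between the comparisons, 0 became 1 (Actg2) with array weights (limma adjusted p = 0.0180), 1 without both arrays (limma adjusted p = 0.0431) and 0 to 1 with each array left out. That difference was not refitted with only the groups compared.

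Over all probe sets, the 912 called between single-Stat5b and single-Stat5a became 534 with a filter at the 50th percentile, 310 with the highest-mean probe set per gene, 320 with probe sets averaged per gene, 478 with only the groups compared, 540 at an adjusted p under 0.01, 555 with covariates, 1469 without both arrays and 652 to 2017 with each array left out (2017 without single-Stat5b 3). The 3 called between Stat5a-/- and Stat5ab+/null became 1 with the highest-mean probe set, 1 with the mean, 430 with array weights, 0 at an adjusted p under 0.01, 0 with covariates, 0 without both arrays and 0 to 6 with each array left out. The 345 called for the difference between the comparisons became 202 with the 50th percentile filter, 110 with the highest-mean probe set, 115 with the mean, 1018 with array weights, 197 at an adjusted p under 0.01, 197 with covariates and 233 to 521 with each array left out.

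Uncalled differences near 0 turned sign as follows. Between Stat5a-/- and Stat5ab+/null, Myh11 became -0.040 with covariates, Mylk -0.156 with the mean of probe sets, and Oxtr 0.003 with quantile normalization, 0.100 with the mean and 0.038 with covariates. Between single-Stat5b and single-Stat5a, array weights gave 0.043 for Acta2, -0.038 for Myh11, -0.147 for Mylk and 0.057 for Lmod1, the mean of probe sets gave -0.023 for Myh11 and -0.081 for Mylk, covariates gave -0.130 for Mylk, and leaving out both arrays gave -0.237 for Myh11 and 0.025 for Trp63. For the difference between the comparisons, array weights gave 0.019 for Acta2, -0.138 for Myh11 and 0.118 for Lmod1, the mean gave -0.035 for Myh11 and 0.075 for Mylk, covariates gave 0.018 for Lmod1, and leaving out both arrays gave -0.283 for Myh11, -0.054 for Cnn1 and 0.051 for Mylk. With each array left out, the ranges that crossed 0 were, between Stat5a-/- and Stat5ab+/null, -0.060 to 0.223 for Myh11, -0.015 to 0.171 for Cnn1, -0.028 to 0.253 for Mylk, -0.138 to 0.053 for Tagln, -0.223 to 0.066 for Lmod1 and -0.197 to 0.097 for Oxtr. Between single-Stat5b and single-Stat5a they were -0.120 to 0.102 for Acta2, -0.077 to 0.245 for Myh11, -0.286 to 0.197 for Mylk, -0.385 to 0.013 for Lmod1 and -0.322 to 0.186 for Trp63. For the difference between the comparisons they were -0.165 to 0.058 for Acta2, -0.123 to 0.198 for Myh11, -0.375 to 0.108 for Mylk, -0.285 to 0.113 for Lmod1 and -0.355 to 0.015 for Oxtr.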
